A study of Mus musculus with 6 samples.

Results

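The genes described here are p53 itself, its negative regulators Mdm2 and Mdm4, and 7 genes known as p53 targets. They were chosen by name, and each was read from the brightest array feature that the platform annotation pairs with that symbol and no other. Of the 10 genes, 8 had such a feature, out of 22180 genes in all: Mdm2, Mdm4, Ccng1, Sesn1, Sesn2, Trp53inp1, Zmat3 and Ei24. Trp53 and Gdf15 were not analysed here. No member was lost to a filter on low values, since none was applied.

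The cells were J774A.1, an established macrophage-like line from the BALB/c mouse strain, kept in RPMI-1640 with 10% fetal calf serum (FCS) until 80% confluent. The treated group received neuropeptide FF (NPFF), an amidated peptide that acts through G-protein-coupled receptors, at 1 nM in phosphate-buffered saline (PBS) for 18 h. The control group received the PBS vehicle for 18 h, although the sample titles call it non-treated. Each group had 3 arrays, named as biological replicates, and nothing states whether the cultures were grown on separate days.

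The protein p53 is a transcription factor held at low levels by Mdm2, a ubiquitin ligase that marks it for degradation, and by Mdm4, a relative of Mdm2 that binds p53 and blocks its activity. After DNA damage or other stress p53 is released, binds response elements near its target genes and raises genes of cell-cycle arrest, repair, metabolism and apoptosis. Mdm2 is itself a target, which closes a negative feedback loop, and much of the control of p53 acts on the protein rather than on its transcript.

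Values are quantile-normalized log2 intensities, and differences are NPFF minus control on the log2 scale. Control 1 stood apart from the other arrays: pairs of NPFF arrays correlated at r of 0.996 to 0.997 across genes, and pairs of control arrays at 0.965 to 0.996. Control 1 held the lowest value of the 6 arrays in 48.9% of all genes, so values without it are given beside the members and most other genes named. The 8 macrophage markers, among them Cd68 and Lyz2, lay at the 92.1st to 99.9th percentile of mean signal. The measured markers of fibroblasts, epithelium, endothelium and lymphocytes lay at or below the 62.7th percentile, and no list of them separated the groups. The features of the 8 members lay between the 67.5th and 98.8th percentile.

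None of the 8 members passed the test for a change with NPFF. The differences lay between -0.13 for Ccng1 and 0.08 for Zmat3, 6 members were lower and 2 higher, and the groups overlapped in all 8. By limma 0 of 8 had an adjusted p under 0.05, and their adjusted p was 1.00 in each case. Over all genes the share called was 0%; at an unadjusted p under 0.05 it was 2.51%, and 0 of 8 members reached that level, the smallest being 0.223 for Mdm4. Groups did not overlap in 8.58% of all genes, with NPFF lower in 4.92% and higher in 3.67%. Of all genes, 48.3% had a difference below 0 and 51.7% one above 0. The median difference of the members was -0.05, beside 0.00370 over all genes, and without control 1 it was -0.07, beside -0.02. The 95% intervals of 7 of the 8 differences lay between 0.764-fold (the lower bound of Ccng1) and 1.33-fold (the upper bound of Zmat3), and the widest, that of Sesn2, ran from 0.708-fold to 1.57-fold. In RNA from a whole culture, a change in how many cells hold a transcript and a change in its amount per cell cannot be told apart.

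**Figure D1:**
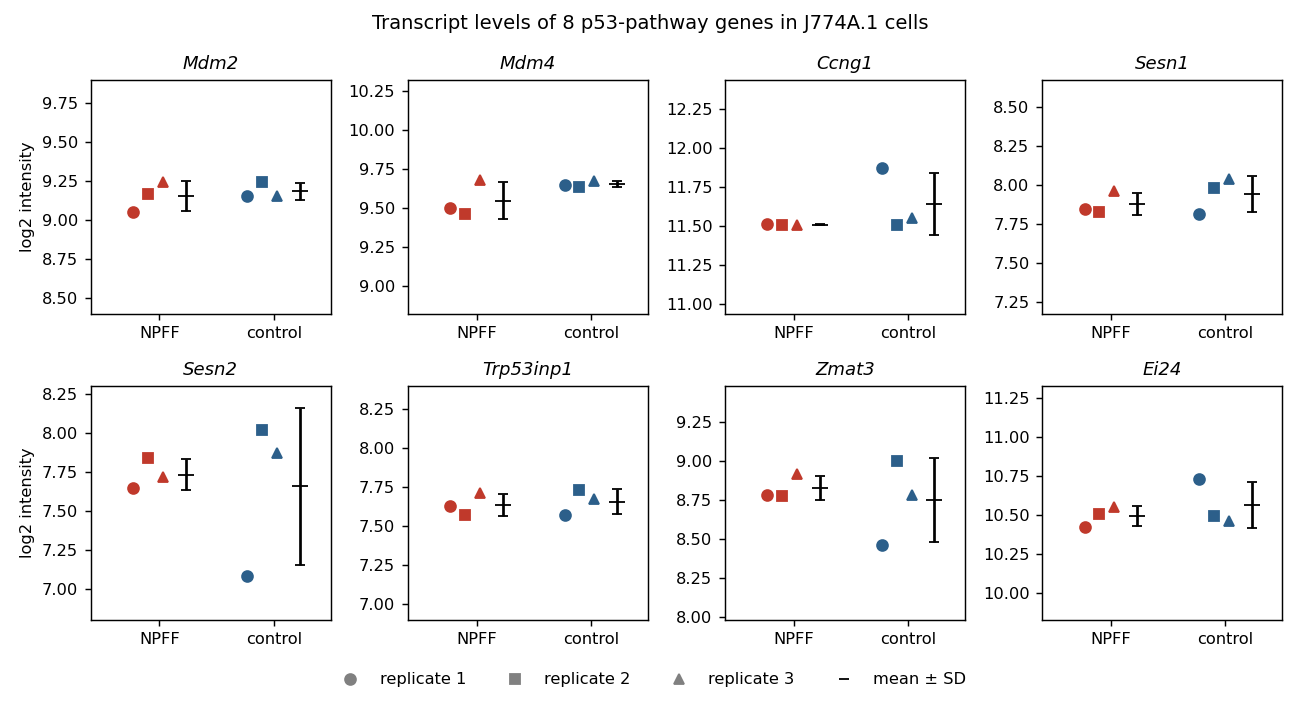
Log2 intensity of the 8 measured genes in each array, with NPFF left and control right in every panel. Symbols mark the replicate number, black bars the mean ± SD (n = 3), and every panel spans the same number of log2 units; the low control point of Sesn2, at 7.08, and the high control point of Ccng1, at 11.87, both belong to control 1.

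Mdm2 (feature 17245248) stood at 9.06, 9.17 and 9.25 in the NPFF arrays, against 9.16, 9.25 and 9.16 in controls 1, 2 and 3. The groups covered nearly the same values, with NPFF 1 the lowest of the 6 arrays and control 2 the highest. The means were 9.16 ± 0.10 in NPFF and 9.19 ± 0.05 in control (SD, n = 3 each), a difference of -0.03 (SE 0.07) with a 95% interval of -0.21 to 0.15, and -0.05 without control 1. As a direct target, Mdm2 is often read as a gauge of p53 activity.

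Mdm4 (feature 17226953) stood at 9.50, 9.46 and 9.68 in the NPFF arrays, against 9.65, 9.63 and 9.67 in the controls. NPFF 1 and 2 lay below all controls, and NPFF 3 lay above them. The difference was -0.10 (SE 0.08), with an interval of -0.29 to 0.08, and -0.10 without control 1. It was -0.10, -0.08 and -0.12 against controls 1, 2 and 3, so Mdm4 was the member whose difference varied least with the choice of control. It depended more on the NPFF arrays, at -0.06 without NPFF 2 and -0.17 without NPFF 3.

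Ccng1 encodes cyclin G1, which recruits a phosphatase to Mdm2. It was the steadiest member in the NPFF arrays (feature 17261865), with 11.51 in each of the 3, against 11.87, 11.50 and 11.55 in controls 1, 2 and 3. Only control 1 lay clearly off the other arrays, here on the high side. The means were 11.51 ± 0.0024 in NPFF and 11.64 ± 0.20 in control (SD, n = 3 each), a difference of -0.13 (SE 0.11). Against control 1 alone it was -0.36, and without control 1 it was -0.02, so this member's place as the lowest of the 8 rested on that array.

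The sestrins restrain the growth kinase mTORC1 and limit oxidative stress. Sesn1 (feature 17232912) stood at 7.85, 7.83 and 7.96 in the NPFF arrays, against 7.81, 7.98 and 8.04 in the controls. All 3 NPFF arrays lay below controls 2 and 3 and above control 1, and the difference was -0.07 (SE 0.08). Sesn2, a leucine sensor that is also a target of the stress factor ATF4, stood at 7.64, 7.83 and 7.72 in the NPFF arrays (feature 17430861), against 7.08, 8.02 and 7.87 in the controls. It had the same layout with a wider spread: the NPFF arrays lay together, between control 1 and the other controls.

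For Sesn2 the means were 7.73 ± 0.10 in NPFF and 7.66 ± 0.50 in control (SD, n = 3 each), a difference of 0.08 (SE 0.24). Against controls 1, 2 and 3 alone it was 0.65, -0.29 and -0.14, so the sign turned with the control used. Without control 1, Sesn2 differed by -0.21 (adjusted p = 0.426 by limma) and Sesn1 by -0.13 (adjusted p = 0.524 by limma). With that array left out, 2 of 8 members, both sestrins, had groups that did not overlap, beside 27.3% of all genes. Sesn2 was the 1 member at an unadjusted p under 0.05 in that setting (0.0297 by limma), a level that 10.8% of all genes reached.

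Trp53inp1 promotes p53-dependent apoptosis and takes part in autophagy. It stood at 7.63, 7.57 and 7.71 in the NPFF arrays (feature 17411751), against 7.57, 7.73 and 7.67 in the controls. The groups covered nearly the same range, and the difference was -0.02 (SE 0.07), with an interval of -0.20 to 0.16, and -0.06 without control 1. Ei24, a membrane protein of the endoplasmic reticulum with a role in autophagy, stood at 10.43, 10.51 and 10.55 in the NPFF arrays (feature 17525548), against 10.73, 10.49 and 10.46 in the controls. As for Ccng1, control 1 was the highest array. The difference was -0.07 (SE 0.09), and 0.02 without control 1.

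Zmat3 encodes a zinc finger protein that binds RNA. It stood at 8.79, 8.78 and 8.92 in the NPFF arrays (feature 17404585), against 8.46, 9.003 and 8.79 in the controls. The control arrays lay on both sides of the NPFF arrays, with control 1 the lowest. The difference was 0.08 (SE 0.14) and turned to -0.07 without control 1. A further feature, paired with Zmat3 and the transcript 4930429B21Rik together, was not used and differed by -0.02.

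**Figure D2:**
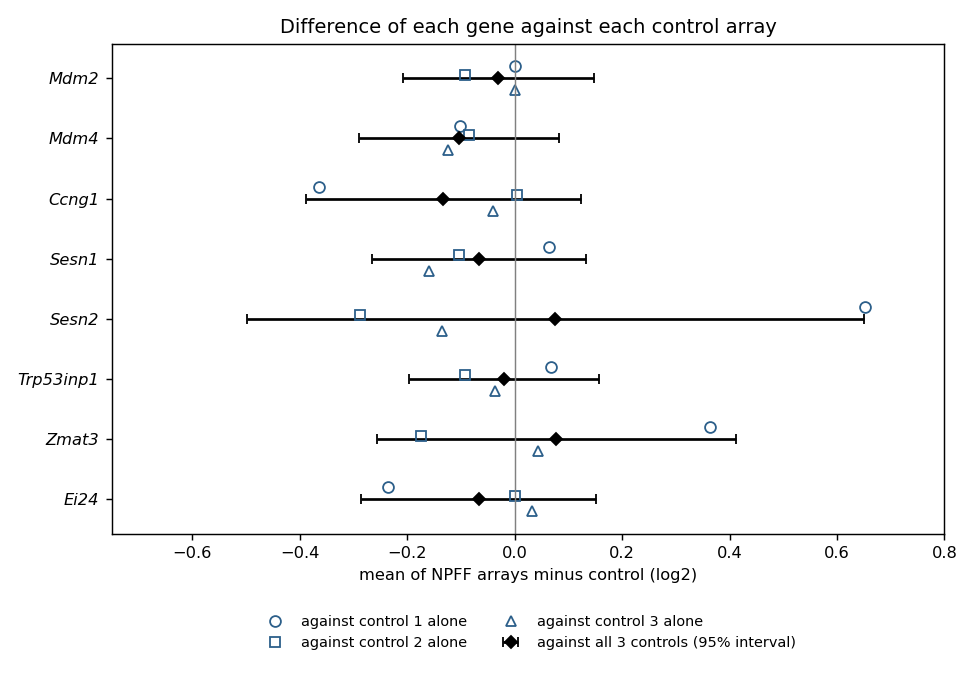
Mean of the NPFF arrays minus control for each member, on the log2 scale. Black diamonds and bars are the difference against all 3 controls with its 95% interval from limma, and open symbols the difference against each control alone; every interval covers 0, and for Sesn2 the open symbols run from -0.29 to 0.65.

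Across the 8 members, control 1 held the lowest value of the 6 arrays in 4 (Sesn1, Sesn2, Trp53inp1 and Zmat3), beside 48.9% of all genes. It held the highest in 2 (Ccng1 and Ei24), beside 24.0% of all genes. Control 2 held the highest value in 4, beside 33.1% of all genes. The control SD was larger than the NPFF SD in 6 of 8 members, beside 80.4% of all genes; Mdm2 and Mdm4 were the exceptions.

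Response elements of p53 are built from 2 half-sites of 10 bases. RefSeq promoter windows (GRCm38.p6, 250 bases before to 50 after a transcript start) were at hand for 6 of the 8 measured members, and were searched for the p53 half-site consensus, which reads the same on both strands. An exact match was present for 4 of 6 members (Mdm2, Ccng1, Sesn1 and Ei24), beside 9.55% of 27025 genes and 8.36% of 32851 windows. Ccng1 also held 2 abutting half-sites with 1 letter off the consensus. Allowing at most 1 such letter, abutting half-sites were present in 0.107% of genes and 0.0883% of windows. Of the 34 further p53 targets listed below, 27 had a window. An exact half-site was present for 8 of these, or 29.6%, and abutting half-sites for 1, Cdkn1a. The matches are printed because p53 is known to act through elements built from such half-sites. For Mdm2, Sesn1 and Ei24 the match is a half-site only, with no abutting pair found. Sequence outside the windows was not searched, so elements that lie elsewhere in or near these genes would be missed. Binding was not measured in these cells, and whether p53 acts through any printed match was not tested. Capitals mark the match, and Cdkn1a, the standard p53 target of cell-cycle arrest, is given for comparison. The stretches are chr11:40755442-40755501 (minus strand) for Ccng1, chr10:117710915-117710964 (minus strand) for Mdm2, chr10:41887246-41887295 (plus strand) for Sesn1, chr9:36797335-36797364 (minus strand) for Ei24 and chr17:29090908-29090967 (plus strand) for Cdkn1a.
Ccng1: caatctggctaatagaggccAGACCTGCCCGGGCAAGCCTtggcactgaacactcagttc
Mdm2: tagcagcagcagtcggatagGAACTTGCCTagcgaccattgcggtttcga
Sesn1: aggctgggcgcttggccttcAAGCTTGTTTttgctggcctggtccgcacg
Ei24: ccagctgccccgtgcggcccGGGCATGCCC
Cdkn1a: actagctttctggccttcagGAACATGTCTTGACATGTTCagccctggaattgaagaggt

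The Ccng1 match began 195 bases before the transcript start, that of Mdm2 186, that of Sesn1 173 and that of Ei24 10. The windows of Mdm4 and Sesn2 held no exact half-site. Members with a match differed by -0.13 to -0.03 between NPFF and control, and those without one by -0.10 (Mdm4) and 0.08 (Sesn2). Without control 1, members with a match differed by -0.13 (Sesn1) to 0.02 (Ei24), and Mdm4 and Sesn2 by -0.10 and -0.21. Whether a match goes with the difference was not tested.

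Further p53 targets were described in 3 lists, of which 29 of 34 genes were measured. By limma 0 of 29 passed the adjusted threshold; 14 were lower and 15 higher in NPFF, with a median difference of 0.01. At an unadjusted p under 0.05 there were 2 higher and 1 lower, beside 0.834% and 1.67% of all genes. Groups did not overlap in 8 of 29, or 27.6%, beside 8.58% of all genes. With all 3 controls, 5 of these were lower and 3 higher. With cyclic loess or with arrays centred on their medians the count was 5, beside 10.3% and 6.28% of all genes. Without control 1, groups did not overlap in 15 of 29, beside 27.3% of all genes, and 12 of these were lower and 3 higher. In that setting 20 of 29 targets were lower, beside 60.9% of all genes. Their median difference was then -0.08, beside -0.02 over all genes.

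Of 10 measured targets of cell-cycle arrest and DNA repair, 5 were lower and 5 higher. Cdkn1a, which encodes the cyclin-dependent kinase inhibitor p21, stood at 12.15, 12.18 and 12.08 in the NPFF arrays, against 11.20, 12.11 and 12.10 in the controls. Control 1 alone was low, and the difference of 0.33 (SE 0.25) was 0.03 without it. Btg2, an antiproliferative gene, stood at 8.30, 8.31 and 8.53 in the NPFF arrays, against 8.18, 8.14 and 8.13 in the controls. All NPFF arrays lay above all controls, by 0.23 (SE 0.08) on average, and by 0.24 without control 1. Sfn, a 14-3-3 protein, differed by -0.21 (SE 0.10) and Dgka, a diacylglycerol kinase, by -0.13 (SE 0.07), both without overlap. Control 1 was the high array for Sfn, at 8.51 against 8.02 to 8.15 in the NPFF arrays and 8.16 and 8.26 in the other controls, and without it Sfn differed by -0.11 and Dgka by -0.14. Rprm also had no overlap, but its difference was -0.02 (SE 0.05). Its mean signal lay at the 42.0th percentile, below the highest of the markers of other cell types.

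Of 12 measured targets of apoptosis, 6 were lower and 6 higher. Bbc3, which encodes the BH3-only protein PUMA, stood at 7.11, 7.17 and 6.99 in the NPFF arrays, against 6.15, 7.28 and 7.12 in the controls. As for Cdkn1a, control 1 was the low array; the difference was 0.24 (SE 0.29), and -0.11 without control 1. Pmaip1, which encodes NOXA, differed by -0.07 (SE 0.07), and by -0.10 without control 1. Fas, the death receptor, stood at 6.60, 6.68 and 6.61 in the NPFF arrays, against 6.69, 7.00 and 6.88 in the controls, each NPFF array below each control. Its difference was -0.23 (SE 0.09), and -0.31 without control 1 (adjusted p = 0.336 by limma). Perp, a desmosome-associated membrane protein, differed by 0.16 (SE 0.07) and Pidd1, a death-domain protein, by 0.13 (SE 0.07), both without overlap, and by 0.13 and 0.11 without control 1. In mean signal Perp lay at the 20.6th percentile, Fas at the 54.2nd, Bbc3 at the 58.0th and Pmaip1 at the 59.6th. All of these were below the highest marker of other cell types, at the 62.7th, while Pidd1 lay at the 68.9th. Of 7 measured targets of metabolism and feedback, 3 were lower and 4 higher, and Cpt1c was the 1 without overlap, at -0.12 (SE 0.07), and -0.16 without control 1. Bax was not analysed here.

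**Figure D3:**
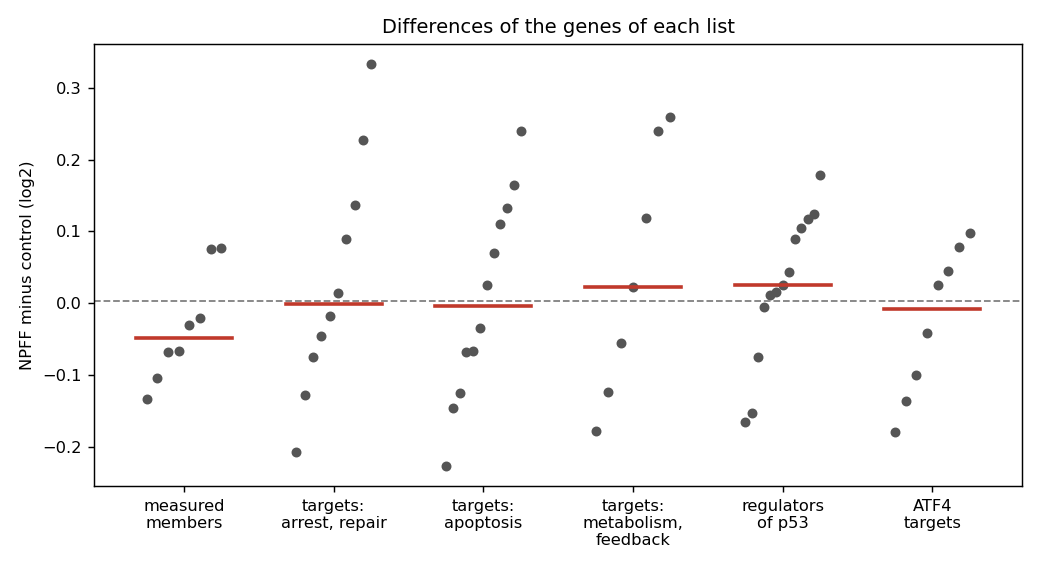
NPFF minus control, on the log2 scale, of each measured gene in 6 lists. Each point is a gene, red bars are list medians and the dashed line is the median of all genes, 0.00370; the members span -0.13 to 0.08, and the highest point, 0.33, is Cdkn1a.

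Among 13 regulators of p53, 9 were higher and 4 lower, with a median difference of 0.03 (0.04 without control 1), and 0 passed limma after adjustment. Cdkn2a, whose locus encodes the Mdm2 inhibitor ARF, stood at 7.26, 7.33 and 7.30 in the NPFF arrays, against 7.26, 7.31 and 7.25 in the controls. All 6 arrays lay within a narrow range, and the difference was 0.03 (SE 0.06). Groups did not overlap in 2 of 13 regulators, or 15.4%, beside 8.58% of all genes. Usp7, a deubiquitinase that stabilizes Mdm2 and p53, was higher in every NPFF array than in every control, with a difference of 0.11 (SE 0.06), and 0.08 without control 1. Atm, the kinase that signals DNA breaks to p53, had a difference of 0.09 (SE 0.06), and 0.06 without control 1.

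Of 5 paralogs and relatives, 3 were lower and 2 higher. Trp63, a paralog of p53, had no overlap and differed by -0.12 (SE 0.07), and by -0.07 without control 1. Its mean signal lay at the 30.7th percentile, below the highest of the markers of other cell types. The third sestrin, Sesn3, differed by 0.03 (SE 0.09), and Ccng2, the relative of Ccng1, by 0.20 (SE 0.12). Without control 1, the lowest array for both, Sesn3 turned to -0.04 and Ccng2 was at 0.07.

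Because Sesn2 also answers to ATF4, 8 genes of the integrated stress response were set beside it, with Atf4 itself among them. They divided into 4 higher and 4 lower, with a median of -0.01, and 0 passed limma after adjustment. Atf4 stood at 9.56, 9.57 and 9.50 in the NPFF arrays, against 9.67, 9.61 and 9.66 in the controls. Its difference was -0.10 (SE 0.06), and -0.09 without control 1. It was the 1 gene of the 8 without overlap, or 12.5%, beside 8.58% of all genes. Control 1 was the lowest array in 6 of these 8 genes, as it was for Sesn2, beside 48.9% of all genes. The median difference without control 1 was -0.13, beside -0.02 over all genes. The part of control 1 in these values was not tested.

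**Figure D4:**
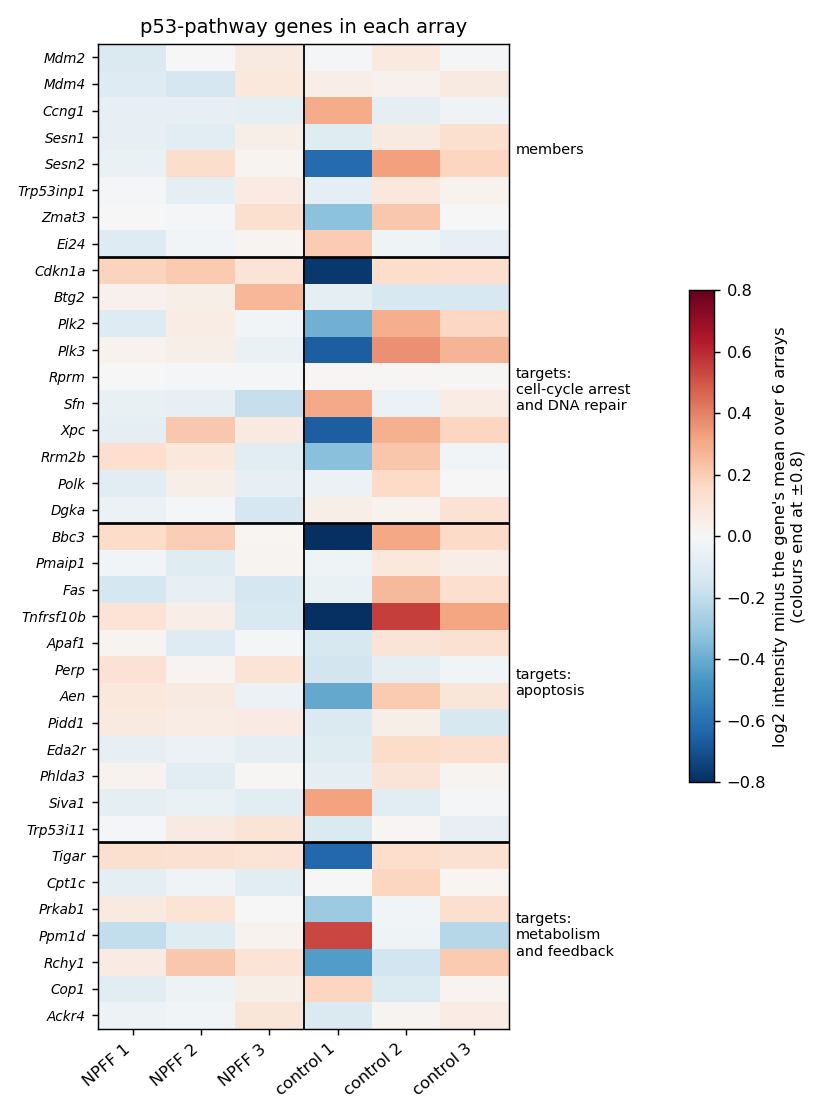
Log2 intensity minus the gene's mean over the 6 arrays, for the 8 members and the 29 further p53 targets, with NPFF arrays left and controls right. Red is above and blue below the gene's mean, with colours ending at 0.8; the darkest blue cells lie in control 1, among them Cdkn1a, Bbc3 and Sesn2.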

How the data were processed

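The authors deposited 1 table of log2 intensities per transcript cluster from 6 Affymetrix whole-transcript arrays, with values between 4.59 and 14.0. The genome build, and how the authors scanned, background-corrected and normalized the arrays, were not stated in the labels or the file. Total RNA was extracted with TRIZOL, per the labels' protocols, and groups were taken from the sample titles.

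Of 33794 features, 23521 had exactly 1 symbol, 1814 several and 8459 none in the platform annotation. The arrays did not share a distribution (their sorted values lay up to 0.172 from their common mean), so all features were quantile-normalized. The brightest feature per gene was kept, with no filter on dim ones. NPFF and control were compared by limma 3.58.1 (R 4.3.3; lmFit and eBayes, 4 residual and 2.49 prior degrees of freedom), two-sided, with Benjamini-Hochberg adjustment over 22180 genes and a threshold of 0.05; the script was tested on simulated data. P-values reflect only the variation among these samples, which may be technical, and 3 arrays per group limit the precision. No 2 arrays held identical values.

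Members and lists were chosen with earlier results of these data known. Named genes were the members, Cdkn1a, Bax, Bbc3, Pmaip1 and Cdkn2a, and from each list up to 4 genes by p among those without overlap. Other genes named were chosen after their values were seen. Alternatives changed the normalization, the features per gene, the dim filter, the replicate block and the arrays. Promoter windows were searched with Python 3.11.15.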

Additional observations from a re-analysis of the deposited data

How the results depend on the processing

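Over all genes, 0 passed the adjusted threshold in every setting tried with limma, and 0 members did. The number at an unadjusted p under 0.05 was 556, between 235 and 2397 with single arrays left out (the highest without control 1), 1130 without controls 1 and 2 together, and 724 by a plain two-sample test without moderation. Of those genes, 33.3% were higher in NPFF, against 19.0% with the values as deposited, 12.1% with arrays centred on their medians and 57.6% without control 2. Whether the replicate numbers pair the arrays could not be settled. Deviations of same-numbered arrays correlated at 0.23, 0.45 and -0.33. NPFF 1 and NPFF 2 correlated best with the control of their own number, though NPFF 2 stood at 0.41 with control 3. NPFF 3 correlated best with control 1, at 0.31. Deviations within a group sum to 0, so these correlations are tied together. With the replicate block 396 genes reached the unadjusted level. The median difference of the members lay between -0.09 (without NPFF 3) and -0.02 (without control 2) over the settings. It moved in each by less than 0.158, the SD of their median level over the controls. That limit is larger than the main difference of -0.05, so staying within it shows little. Members lower without overlap numbered 0, but 2 with arrays centred on their medians, 0 to 2 with single arrays left out and 3 without controls 1 and 2; in these settings groups did not overlap, in either direction, in 6.28%, 13.6% to 27.3% and 49.6% of all genes. The target lists, in settings chosen after seeing the data, had 15 of 29 genes without overlap when control 1 was left out (all genes 27.3%) and 19 when controls 1 and 2 were (all genes 49.6%), where 22 genes were lower (all genes 52.0%).

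Of 311 differences of 24 named genes in other settings, 12 turned sign. With single arrays left out, the differences ranged from -0.11 (without control 1) to 0.45 for Bbc3, from -0.12 to 0.017 (without control 1) for Ei24, from -0.075 to 0.020 (without NPFF 1) for Mdm2, from -0.21 (without control 1) to 0.26 for Sesn2, from -0.065 to 0.016 (without control 2) for Trp53inp1 and from -0.066 (without control 1) to 0.20 for Zmat3. Mdm2 also stood at 0.00049 without control 2, and Trp53inp1 at 0.013 without NPFF 2. Without controls 1 and 2, Bbc3 was at -0.034, Ei24 at 0.033, Mdm2 at 0.00038 and Sesn2 at -0.14. Fewer arrays were compared in each of these.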

Other observations

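Array by array, the further p53 targets were lowest in control 1 in 16 of 29 cases, or 55.2%, beside 48.9% of all genes, and highest in control 2 in 15 of 29, or 51.7%, beside 33.1% of all genes. The difference of control 1 from the mean of the other arrays had a median of -0.14 over the targets, beside -0.09 over all genes. The targets that stood lowest in control 1, chosen after their values were seen, were the death receptor Tnfrsf10b, Bbc3, Cdkn1a, the kinase Plk3, the repair gene Xpc and the metabolic regulator Tigar. Tnfrsf10b was at 6.47 in control 1, against 7.25 to 7.93 in the other arrays, and Cdkn1a at 11.20, against 12.08 to 12.18. Their differences from the mean of the other arrays were -1.09 and -0.93, at percentiles 0.532 and 1.43 of all genes.

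Other p53 targets ran the opposite way in the same array. Ppm1d, a phosphatase that dampens p53 signalling, was at 9.80 in control 1, against 9.04 to 9.29 in the other arrays, a difference of 0.64. Siva1, Sfn and Ccng1 stood 0.39, 0.37 and 0.36 above the mean of the other arrays there. Mdm2 and Mdm4 differed by -0.02 and 0.06 in that array. The cause of control 1's distance was not tested.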
